A study of Rattus norvegicus with 23 samples.

Results

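Female rats whose dams had inhaled ozone early in pregnancy differed from each other, in the expression of 200 liver genes, far more than did female rats whose dams had breathed filtered air. These 200 genes are the subject here. They were chosen by measured values of the daughters alone, from a table of 18056 genes. L is log2(CPM + 1), where CPM is a gene's count after the library's total is scaled to 1000000. A gene qualified with a mean of at least 5 CPM in both groups of daughters (8456 genes) and a standard deviation (SD) of L of at least 0.3 in the ozone daughters (3388 genes). Of these, the 200 with the highest ratio of the SD of L in ozone daughters to that in air daughters were taken, and are called the members. Their spread in daughters is therefore a description and was not tested.

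Poly(A) RNA of 23 livers had been sequenced from male and female offspring at about postnatal day 48. On gestation days 5 and 6 the dams had breathed ozone at 0.8 ppm, or filtered air (0 ppm). The strain of the rats is not given in the sources used here. The groups were 6 air daughters (rats 2, 4, 6, 10, 11 and 12), 6 ozone daughters (rats 51, 52, 55, 56, 57 and 59), 6 air sons (rats 27, 28, 29, 32, 33 and 34) and 5 ozone sons (rats 76, 77, 79, 80 and 83). The labels also describe chamber exposures of some rats without naming them. The ozone level in all 23 library names is zero, and the offspring were taken not to have inhaled ozone themselves. Dams are not given for single offspring, so littermates cannot be recognised, and p-values would be too small if they were present.

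The liver of the rat is among its most sex-dependent organs. Growth hormone is released in pulses in males and more evenly in females, and this pattern sets the level of many hepatic genes, among them cytochromes P450 that metabolise steroids and drugs. The count table gives genes as Ensembl identifiers, and 0 of the 18056 could be paired with a symbol, so the members could not be assigned to pathways, and neither liver markers nor markers of other cell types could be read. Bulk tissue also cannot tell fewer cells of a type from less RNA per cell.

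Total counts lay between 8000498 and 15594817 per library in air daughters, 10184864 and 13596065 in ozone daughters, 9352445 and 12645920 in air sons and 10991393 and 14098393 in ozone sons. Library names came in 2 styles. The first style held 5 of the 6 air daughters (all but rat 4), 1 of the 6 ozone daughters (rat 52), air sons 28, 29 and 34, and 4 of the 5 ozone sons (all but rat 77). Style and maternal exposure can therefore hardly be told apart in daughters, but rats 51, 55, 56, 57 and 59 share a style.

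The members were uncommonly even among air daughters and uneven among ozone daughters. Their median SD of L was 0.13 in air daughters (quartiles 0.11 to 0.17) and 0.45 in ozone daughters (0.37 to 0.55). Over the 8456 genes of the level minimum these medians were 0.22 and 0.26, and over the 3388 genes of both minimums 0.28 and 0.41. Beside the 3388 genes, the members thus stood out more by low spread in air daughters than by wide spread in ozone daughters. The range from the lowest to the highest liver had a median of 0.34 log2 units in air daughters and 1.19 in ozone daughters. Over the 3388 genes it was 0.76 and 1.09. In 142 members (71%) the ozone daughters spanned more than 1 log2 unit, against 62.7% of the 3388 genes and 25.1% of the 8456. The SD ratio of the members ran from 2.83 to 8.18 with a median of 3.32, against a median of 1.21 over the 8456 genes. The last ratios inside the list were 2.838, 2.829 and 2.828, and the next outside were 2.823, 2.820 and 2.816, so the list ends within a continuous run of values.

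**Figure D1:**
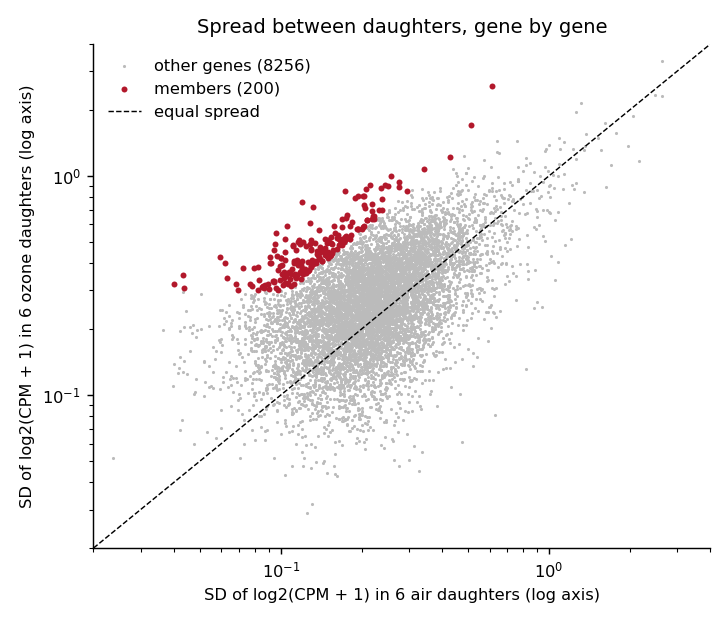
Each point is a gene that met the level minimum, placed by its SD of log2(CPM + 1) in the 6 air daughters and in the 6 ozone daughters (log axes), with the 200 members in red. The members lie along the upper left edge of 1 cloud and do not form a separate group, with SDs in ozone daughters from 0.30 to 2.56.

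A high ratio can come from its denominator as well as its numerator. The SD that counting error alone would give, from the mean count and the library totals, had a median of 0.09 for the members in air daughters, and 46 of the 200 (23%) had an SD at or below it there, against 3.99% of the 8456 genes. In ozone daughters 0 of the 200 did. Among air sons, whose values played no part in the choice, the members' median SD was 0.23, that of the 8456 genes 0.21 and that of the 3388 genes 0.26. There 14 members (7%) had an SD at or below counting error, against 6.36% of the 8456 genes and 4.57% of the 3388. The members' SD in air sons thus lay between those of the 2 wider sets, whereas in air daughters it was below both (0.22 and 0.28).

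The members covered the usual range of abundance. Their mean level in air daughters had a median of 18.1 CPM (quartiles 8.95 to 51.7), and that of the 8456 genes was 22.6 CPM. Below 10 CPM lay 56 members (28%, against 20.8% of the 8456), and above 100 CPM 25 (12.5%, against 14.2%). Fractional counts, which arise where reads are divided between genes, occurred in 86 members (43%, against 39.0%), and their levels are uncertain to that extent.

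Among the ozone daughters, rat 56 was the most frequent extreme. It was the ozone daughter farthest from the group's median in 108 of the 200 members, below the median in 86 and above it in 22. Rat 51 was farthest in 33, rat 57 in 20, rat 59 in 19, rat 52 in 15 and rat 55 in 5. Rat 56 was also the most frequent extreme among the 8456 genes (34.6%) and the 3388 genes (44.8%), against 54% of the members. Rat 59 was farthest in 20.2% and 19.3% of those genes and in 9.5% of the members.

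**Figure D2:**
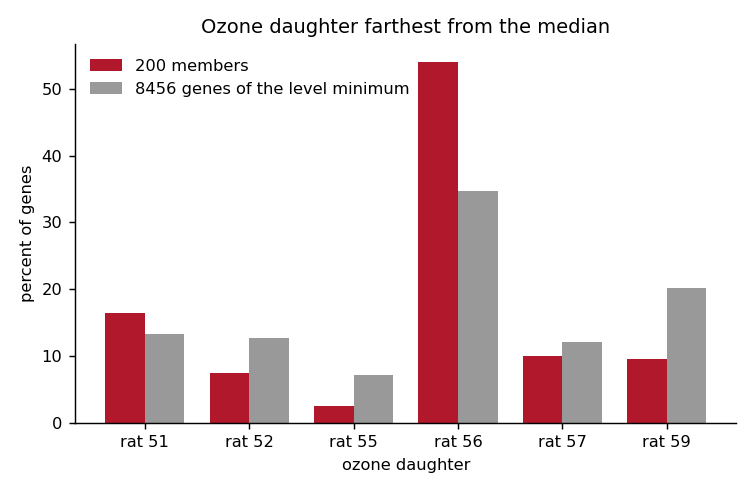
Bars give the percent of genes in which each ozone daughter lay farthest from the median of the 6, for the 200 members (red) and the 8456 genes of the level minimum (grey). Rat 56 holds 54% of the members and 34.6% of the genes.

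Single animals standing wholly apart were rare. In 4 members (2%) the gap between 1 extreme ozone daughter and her nearest neighbour exceeded the critical share of the group's range in Dixon's test, against 4.36% of the 8456 genes and 4.19% of the 3388. In most members, ozone daughters left the range of the air daughters on both sides. In 170 members (85%) at least 1 ozone daughter lay above and at least 1 below all 6 air daughters, against 22.8% of the 8456 genes and 31.3% of the 3388. In 161 members (80.5%) 4 or more of the 6 lay outside, against 20.3% and 25.1%. These counts follow largely from the choice of members by spread. Rat 56 was outside the air range in 188 members (94%, against 77.6% of the 3388 genes), rat 57 in 162 (81%, against 57.7%) and rat 55 in 147 (73.5%, against 48.6%). Rat 51 was outside in 144 (72%, against 33.5%), rat 52 in 113 (56.5%, against 30.3%) and rat 59 in 112 (56%, against 18.6%).

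The list and its ratios depended on rat 56 in part. Without her the members' median SD ratio was 2.89, and 175 of the 200 had a ratio above 2. Since the same ratios with her included had chosen the members, these values say little of how far the spread rests on her. The median ratio of the 8456 genes fell from 1.21 to 1.06 without her, and the rule applied anew kept 114 of the 200. Membership rested as much on the air daughters: without rat 2, 6, 10 or 12 the rule kept 125, 102, 132 or 117. With the 5 ozone daughters of the second name style against the 5 air daughters of the first, it kept 133. Rat 56 had the smallest total count of the ozone daughters (10184864) and the smallest TMM factor of the 23 libraries (0.941; TMM scales libraries on genes that change little). With TMM scaling she was farthest in 106 members.

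4 members are given by identifier, the highest-ranking ones with whole counts in every library whose most distant ozone daughter lay below (ENSRNOG00000010453 and ENSRNOG00000002258) or above the median (ENSRNOG00000012933 and ENSRNOG00000020354). What their products do is not given in the sources used here.

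ENSRNOG00000010453 had the highest SD ratio of all, 8.18. Air daughters held between 28.6 and 30.8 CPM (median 29.7). Ozone daughters held 29.5 (rat 51), 22.2 (rat 52), 24.9 (rat 55), 16.9 (rat 56), 28.8 (rat 57) and 35.1 CPM (rat 59). Rat 59 lay above and rats 52, 55 and 56 below every air daughter, and rat 56 also lay below every air son (19.9 to 23.9 CPM). Ozone sons held 31.6 (rat 76), 24.8 (rat 77), 25.6 (rat 79), 22.8 (rat 80) and 32.4 CPM (rat 83), so all but rat 80 were above the air sons. The difference between ozone and air sons, 0.32 with a standard error of 0.13 on the log2 scale, did not pass the threshold (edgeR, adjusted p = 0.11). Over the alternatives its adjusted p ran from 0.0499, without rat 80, to 0.241, without rat 83.

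ENSRNOG00000002258 departed in another animal. Air daughters held 13.9 to 15.6 CPM (median 14.9), and ozone daughters 18.7 (rat 51), 20.8 (rat 52), 9.12 (rat 55), 17.4 (rat 56), 21.3 (rat 57) and 14.4 CPM (rat 59). Rat 55 was far below, rats 51, 52, 56 and 57 were above, and rat 59 was within the air range. Air sons (15.9 to 20.7 CPM) and ozone sons (16.7 to 24.3 CPM) overlapped, with a log2 difference of 0.08 and a standard error of 0.15 (edgeR, adjusted p = 0.758).

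ENSRNOG00000012933 was higher in rats 56 and 57. Air daughters held 11.0 to 12.2 CPM (median 11.6), and ozone daughters 10.1 (rat 51), 10.2 (rat 52), 11.9 (rat 55), 18.4 (rat 56), 16.9 (rat 57) and 8.75 CPM (rat 59). Rat 57 lay within and rat 56 above the range of the air sons (13.4 to 18.2 CPM), rat 55 lay within the range of the air daughters, and rats 51, 52 and 59 below it. Ozone sons held 9.74 (rat 76), 9.72 (rat 77), 11.5 (rat 79), 14.7 (rat 80) and 11.1 CPM (rat 83), and rat 80 alone reached the air sons. The sons' log2 difference of −0.48 (standard error 0.17) missed the threshold (edgeR, adjusted p = 0.0585). Over the alternatives its adjusted p ran from 0.02, without rat 80, to 0.182, without rat 77, and it passed under 5 of them.

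ENSRNOG00000020354 was a gene of low level, again with rat 56 the highest. Air daughters held 4.55 to 5.72 CPM (median 5.13), from 39 to 79 counts. Ozone daughters held 4.05 (rat 51), 6.04 (rat 52), 7.92 (rat 55), 13.5 (rat 56), 7.87 (rat 57) and 3.90 CPM (rat 59), so rat 56 was above every other daughter and every air son (7.67 to 13.3 CPM). Ozone sons held 5.01 (rat 76), 6.74 (rat 77), 5.03 (rat 79), 11.1 (rat 80) and 6.00 CPM (rat 83). The sons' log2 difference was −0.73 with a standard error of 0.27 (edgeR, adjusted p = 0.0714). Over the alternatives its adjusted p ran from 0.0153, without rat 80, to 0.161, without rat 76, and it passed under 3 of them.

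**Figure D3:**
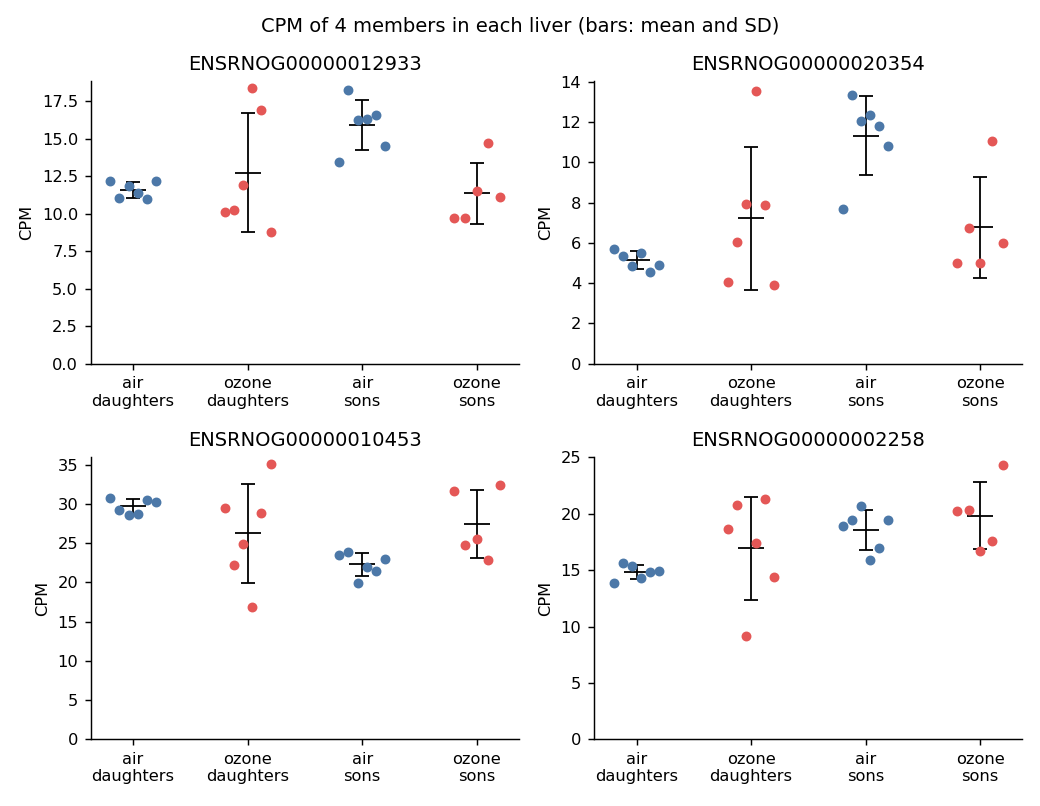
Points are the CPM of single livers for the 4 members given by identifier, in air and ozone daughters and air and ozone sons, with black bars for the mean and SD. The 6 air daughters lie close together in each panel and the 6 ozone daughters are spread, with rat 56 at 16.9 CPM in ENSRNOG00000010453 and 13.5 CPM in ENSRNOG00000020354.

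Among all members, the one with the widest spread (chosen after its values were seen, and with fractional counts) had an SD of L of 2.56 in ozone daughters and 0.61 in air daughters. Its level was 26.4 to 83.9 CPM in air daughters. Ozone daughters held 112 (rat 51), 70.7 (rat 52), 5.14 (rat 55), 0.764 (rat 56), 6.34 (rat 57) and 108 CPM (rat 59), a split into 3 high and 3 low livers. Air sons held at most 2.53 CPM, and ozone sons 42.1 (rat 76), 24.3 (rat 77), 33.1 (rat 79), 1.04 (rat 80) and 23.7 CPM (rat 83). For this member, rat 56 was at the level of air sons, and 4 of the 5 ozone sons were far above it. The member with the highest level (also chosen after its values were seen, and with fractional counts) held 1027 to 1266 CPM in air daughters. Ozone daughters held 1345 (rat 51), 1177 (rat 52), 1140 (rat 55), 716 (rat 56), 857 (rat 57) and 1236 CPM (rat 59). Rats 56 and 57 lay below every air daughter and within the range of the air sons (558 to 903 CPM). Of the ozone sons only rat 80 (853 CPM) lay among the air sons, and the other 4 held 1142 to 1227 CPM.

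How far the members varied together was described by principal components. A first component of the members' L, centred gene by gene, held 68.8% of their variance among the 6 ozone daughters, against 54.2% for the 8456 genes and 57.0% for the 3388. These are the values that chose the members, so the share is a description. In the other groups the members' first component held 35.4% in air daughters, 36.5% in air sons (31.0% for the 3388 genes) and 59.3% in ozone sons (49.4%). Rat 56 (−0.68), rat 57 (−0.26) and rat 55 (−0.18) stood on one side of the axis in ozone daughters, and rat 51 (0.50), rat 59 (0.37) and rat 52 (0.24) on the other. On this axis 131 members were lower toward rat 56 and 69 were higher. The 131 had a median of 28.9 CPM in air daughters and the 69 a median of 9.67 CPM, nearer to the level minimum. Without rat 56 the first component held 56.9%.

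The mean L of each set, minus the mean of the air daughters, gives every liver a position. For the 131 members, ozone daughters lay at 0.29 (rat 51), 0.05 (rat 52), −0.38 (rat 55), −0.85 (rat 56), −0.29 (rat 57) and 0.18 (rat 59). Air daughters stayed between −0.10 and 0.06, as their choice for low spread favours, and air sons lay between −0.67 and −0.46. So rats 55 and 57 stood between the daughters and sons of air dams, rat 56 stood beyond the air sons, and rats 51 and 59 stood on the far side from the sons. Ozone sons lay at 0.09 (rat 76), −0.15 (rat 77), −0.04 (rat 79), −0.45 (rat 80) and −0.15 (rat 83), all above the highest air son, rat 27 at −0.46, though rat 80 only by 0.01.

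The 69 members differ from the 131 by the sign of their loading on that axis. An opposite direction of the ozone daughters along it was therefore fixed by the division. For the 69 members, ozone daughters lay at −0.31 (rat 51), −0.14 (rat 52), 0.10 (rat 55), 0.56 (rat 56), 0.57 (rat 57) and −0.12 (rat 59). Air daughters lay between −0.07 and 0.06 and air sons between 0.25 and 0.48. Rats 56 and 57 exceeded all air sons. Among ozone sons, rats 76, 77, 79 and 83 lay between −0.23 and −0.08, below every air daughter, and rat 80 at 0.35 lay among the air sons. With TMM scaling rat 56 lay at −0.76 and 0.66 for the 2 sets.

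**Figure D4:**
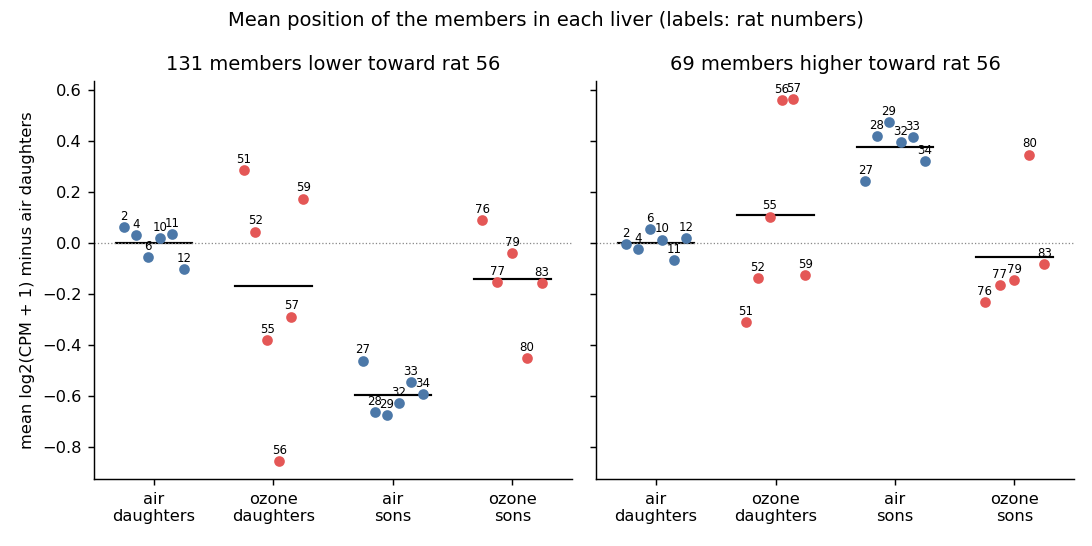
Each point is 1 liver, labelled by rat number, at the mean log2(CPM + 1) of a set of members minus the mean of the air daughters, with a line at the group mean, for the 131 members lower (left) and the 69 higher toward rat 56 (right). Ozone daughters run from −0.85 to 0.29 in the left panel, air daughters from −0.10 to 0.06.

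The 2 sets differed in which sex had the higher level. In air offspring, 88 of the 131 members passed the edgeR test as higher in daughters and 4 as higher in sons, with a median log2 difference of 0.58. Of the 69 members, 5 passed as higher in daughters and 40 as higher in sons, with a median of −0.49. Over the 200, 93 (46.5%) were higher in daughters, against 23.8% of the 12792 genes tested, and 44 (22%) higher in sons, against 24.6%. Of the 3388 genes that met the level and SD minimums, 40.6% were higher in daughters and 26.4% in sons, so 68.5% of the members and 67.0% of those genes were called in all. The share of genes that differed between the sexes was thus close in the members and in genes that met the same level and SD minimums. The air daughters' low spread was a ground of choice and eases such calls, so these counts are a description.

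The direction of each ozone daughter was read against the other 5, which shares no library with the sex difference in air offspring. Rat 56 differed from the other 5 toward the air sons' side in 177 of the 200 members (88.5%, against 84.5% of the 3388 genes), rat 57 in 149 (74.5%, against 72.7%) and rat 55 in 139 (69.5%, against 66.9%). Rat 52 did so in 53 (26.5%, against 30.2%), rat 51 in 37 (18.5%, against 24.9%) and rat 59 in 22 (11%, against 14.96%). Each animal stood on the same side over the 3388 genes, with somewhat less one-sided shares. The 6 animals are not 6 separate findings, since each is set against the others.

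The group means of the daughters were not separated by the test. The values are a description, since the rule used these libraries. By edgeR 0 of the 200 members passed between ozone and air daughters and 12 had an unadjusted p below 0.05, and of the 12792 genes tested 0% passed and 1293 had such a p. DESeq2 called 4 genes, of which 0 were members. Both numbers depended on single animals. That of the members was 34 without ozone daughter 59 and 28 without ozone daughter 51, and that of all genes 2132 and 1404. Without air daughters 11, 2, 4 and 10 it was 2, 3, 5 and 6 members, and 968, 867, 748 and 1191 genes in all. Without ozone daughters 55, 56 and 57 it was 4, 4 and 5 members, and 1005, 789 and 1004 genes in all. The median log2 difference of the members was −0.03 by edgeR and −0.09 as a difference of mean L. For the 131 members it was −0.12 by edgeR, with 97 below 0, and for the 69 it was 0.16, with 56 above 0, in sets divided by the ozone daughters' own values.

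Sons were then examined, because none of their values entered the choice. The edgeR fit, however, estimated each gene's spread from all 23 libraries, so the daughters that chose the members entered the error of the test. A fit to the male libraries alone leaves the daughters out of that error. It called 97 members, 69 higher and 28 lower in ozone sons, among 2024 of 12237 genes. In the fit to all 23 libraries, 74 of the 200 members (37%) passed the edgeR test between ozone and air sons. Of these, 53 were higher and 21 lower in ozone sons (adjusted p below 0.05 over 12792 genes, n = 5 and 6). Over all genes tested 13% passed, 7.24% higher and 5.75% lower. Genes of higher level and wider spread passed more often: the share was 16.1% of the genes of the level minimum and 24.9% of the 3388 genes that also met the SD minimum, and the members' share is to be read against these as well. The 53 rose by 0.36 to 4.43 on the log2 scale (median 0.67, quartiles 0.52 to 0.85). The 21 had log2 changes from −1.74 to −0.50 (median −0.76, quartiles −0.98 to −0.62). Of the 74, 11 changed at least 2-fold, against 285 of the 1661 genes called in all. Fractional counts occurred in 23 of the 53 and 15 of the 21. The ozone and air sons did not overlap in 19 members that were higher and 12 that were lower, together 15.5% of the 200, against 6.7% of the genes tested, 8.17% of the 8456 and 10.7% of the 3388.

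The 2 sets of members changed in opposite directions in sons. Of the 131 members lower toward rat 56, 53 rose in ozone sons and 0 fell, and of the 69 members 21 fell and 0 rose. The median log2 difference was 0.47 and −0.44. In 126 of the 131 the estimate was above 0, and in 63 of the 69 it was below 0. Other genes that met the level and SD minimums, placed on the same axis of the ozone daughters, divided likewise. Of the 1893 lower toward rat 56, 491 rose in ozone sons (25.9%, against 40.5% of the members), 1 fell, and 87.6% had an estimate above 0. Of the 1295 higher toward her, 262 fell (20.2%, against 30.4%), 15 rose, and 85.6% had an estimate below 0. By mean position, ozone sons lay, for both sets, on the side of the air sons where air daughters lie. For the 69 members, however, rat 80 lay among the air sons. Of the ozone daughters, rats 55, 56 and 57 lay on the air sons' side of the air daughters in both sets. Rats 51, 52 and 59 lay on the other side, rat 52 within the air daughters' range for the 131 members. Air sons enter both the sex difference and the sons' ozone effect, so these are set side by side and not counted together.

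The number of members called in sons depended on single animals, as did the number of all genes called (1661 with every animal kept). It was 33, 37 and 34 without air sons 28, 29 and 34, with 786, 840 and 751 genes called in all. It was 21, 31 and 41 without ozone sons 76, 79 and 83, with 450, 631 and 823 genes called in all. Without rat 77, the only ozone son of the second name style and the library with the most counts among them, it was 4, and 108 of 12899 genes were called in all. Without rat 80 it rose to 113, with 3129 genes called in all. Within the first name style (4 ozone and 3 air sons) 27 members passed, among 234 genes in all.

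The spread of the members in sons gave the same measure in animals the rule did not use. Their median SD of L was 0.23 in air sons and 0.28 in ozone sons, against 0.45 in ozone daughters. The SD ratio of ozone to air sons had a median of 1.31 (quartiles 0.96 to 1.76) and exceeded 1 in 142 members (71%), against a median of 1.12 and 59.6% over the 8456 genes and of 1.22 and 66.2% over the 3388. By limma on the absolute deviations from the group mean, 0 of the 186 members with at least 5 CPM in both groups of sons passed (smallest adjusted p = 0.648), and 15 had an unadjusted p below 0.05, of which 12 were wider and 3 narrower in ozone sons. These 15 are 8.06% of the members tested, against 6.70% of all genes tested and 8.58% of the tested genes that met both minimums. Over the 8431 genes tested 0.0237% passed. With deviations from the group median 0 members passed and 4 had an unadjusted p below 0.05, as had 140 of the 8431 genes. Without ozone son 77 or 79 the 15 became 23 or 24, and without air son 33 they became 9. Over all genes tested the number was 565, and it became 687 or 646 and 487. The higher ratio in sons rested on rat 80: without this animal the median ratio was 0.85 with 80 members above 1, against 0.88 for the 8456 genes and 0.85 for the 3388. Without any other single ozone son the members' median lay between 1.25 and 1.39.

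**Figure D5:**
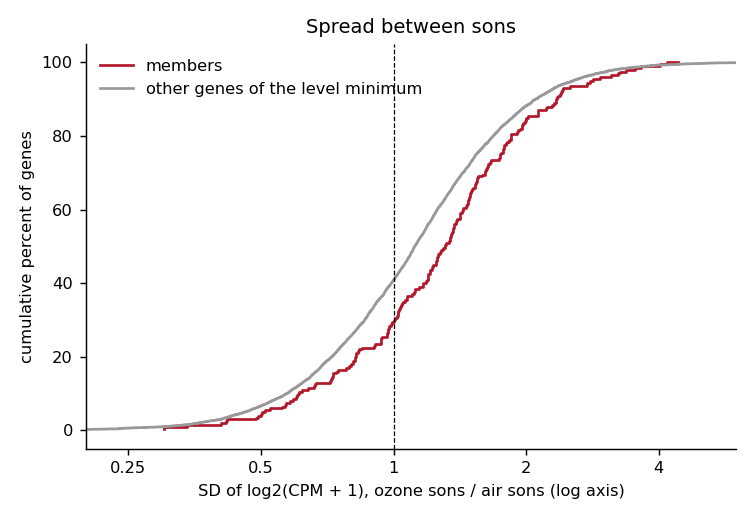
Lines give the cumulative percent of genes against the ratio of the SD of log2(CPM + 1) in 5 ozone sons to that in 6 air sons (log axis), for the members (red) and the other genes of the level minimum (grey). The members' line lies to the right, with a median of 1.31 and 71% above a ratio of 1.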

How the data were processed

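Per the labels' protocols, total RNA of liver was poly(A)-selected for sequencing. The authors deposited estimated counts per gene, not normalized, for 18056 Ensembl identifiers. Per the submitters' processing notes, STAR 2.6.1d, Partek and DESeq2 were used with build rn6. Annotation and counting options: not given in the sources used here. Pairs of libraries within groups (55) differed by a chi-square of at least 12.7 per degree of freedom, so none was a copy of another in its group. Pairs across groups were not compared.

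Here CPM was computed from column totals. Rounded counts were fitted with edgeR 4.0.16 (R 4.3.3): filterByExpr, TMM, quasi-likelihood, 4 group means and a library name style term, over all 23 libraries, with Benjamini-Hochberg adjustment and a threshold of 0.05. Spread in sons was tested with limma 3.58.1 on absolute deviations scaled for group size, in the 11 sons. Both were tested on simulated data. For the spread test the simulated widening was far larger than the members' median SD ratios, so its power at such ratios is not known. DESeq2 1.42.0, limma voom, the male libraries alone, other filters, scalings and left-out animals were alternatives. The members and lists were chosen with earlier results of these data known. Planned gene lists needed symbols and were not read. The rule for identifiers took, with no symbols, at most 2 whose farthest ozone daughter lay above and 2 below the median, with the highest SD ratio and whole counts (within 1e-06). Counting limits the precision of genes of low level.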

Additional observations from a re-analysis of the deposited data

Results flagged for a closer look

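Of 28 groups of values examined for an animal far from the rest (total counts, the 4 identifiers and the positions of the 2 sets, each in 4 groups), 3 had one; chance alone gives about 1 in 20. Among ozone sons, rat 80 lay at 0.35 for the 69 members, with the next at −0.08, and held 11.1 CPM of ENSRNOG00000020354, with the next at 6.74 CPM. The total count of rat 77 was 14098393, with the next at 11272214. Their part in the results of the sons was not tested beyond the values without each.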

How the results depend on the processing

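The median SD ratio of the members in daughters was 3.32 and ranged from 2.89 to 3.59 with any daughter left out; by the median absolute deviation it was 3.58. In sons it was 1.31, from 0.85 to 1.39 with any son left out, 1.02 by the median absolute deviation and 1.57 within the first name style. The rule kept 102 to 179 of the 200 with any daughter left out, 89 with a minimum of 20 CPM, 69 with an SD of at least 0.5 and 133 with 5 daughters a group from 1 name style each. Members called in sons numbered 4 to 113 with any son left out, 27 within the first name style, 91 by DESeq2 and 65 by limma voom. Over all genes tested the same fits called 108 to 3129, 234, 2254 and 1549. With the male libraries alone 97 members and 2024 genes in all were called. The first component held 56.9% to 75.3% with any ozone daughter left out. The sons' log2 change of ENSRNOG00000002258 was −0.026 in the first name style and from −0.0014 (without rat 77) to 0.14 with any son left out, none past the threshold. The cause of these changes was not tested. Members with an unadjusted p below 0.05 in daughters numbered 12, and 19 with no name style term (1293 and 1890 of all genes tested). In the sons' spread test such members numbered 15, and 4 with deviations from the group median (565 and 140 of all genes tested). The alternatives for the sex difference, the daughters' means and the component were chosen after seeing the data. No paired analysis was possible because the labels give no replicate numbers shared between groups.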
